A study of Mus musculus with 12 samples.

Results

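The genes described here encode 8 ligands of the TNF superfamily: Cd40lg, Fasl, Tnfsf4, Tnfsf8, Tnfsf9, Tnfsf10, Tnfsf11 and Tnfsf14. They were chosen by name, from earlier results of the same libraries, out of 45321 genes over which transcript values were summed, and all 8 passed the filter on low counts. The RNA came from CD4+ T cells of C57BL/6 mouse spleens, purified untouched, that is, by removing the other cells. There were 3 libraries in each of 4 groups. CsA_PI cells received 1 µM cyclosporin A (CsA) for 1 h and were then stimulated with 10 nM PMA and 1 µM ionomycin for 2 h. Ethanol_PI cells received the ethanol vehicle and the same stimulation. CsA_US cells received CsA without stimulation, and ethanol_US cells received vehicle without stimulation. CsA blocks calcineurin, the phosphatase that releases NFAT transcription factors to the nucleus. PMA is an activator of protein kinase C and ionomycin a calcium ionophore, and the pair acts downstream of the T cell receptor.

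Ligands of the TNF superfamily are type II membrane proteins that assemble as trimers and cluster receptors of the TNF receptor superfamily on a neighbouring cell. Some can be shed from the membrane by proteases. Activated helper T cells use them to license B cells and dendritic cells, to costimulate other T cells and to kill cells that carry death receptors. The comparisons ask how each ligand's mRNA responded to PMA with ionomycin and how CsA altered that response.

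Libraries held 10523816 to 18468044 estimated counts. By these unadjusted totals, a count of 0 in a library allowed up to 0.162 to 0.285 CPM (3 counts, counting error only). The CPM values below are instead scaled to the TMM-adjusted library size. On that scale 3 counts were 0.1413 CPM in CsA_US 1 and 0.3695 CPM in ethanol_PI 3. Whether replicates came from separate animals is not in the labels, so a p-value here weighs a difference against the variation among libraries, part or all of which may be technical. The 10 CD4 T cell markers summed to 3805 to 6617 CPM in CsA_PI, 5418 to 6892 in ethanol_PI, 4448 to 4840 in CsA_US and 3828 to 4868 in ethanol_US. Markers of other cells were present as well: 10 B cell markers summed to 2880 to 4700, 2661 to 4218, 2285 to 4042 and 2416 to 4538 CPM in the same 4 groups, most of it Ighm. In each group the replicate 2 library had the highest sums of B cell and of myeloid and dendritic cell markers. In bulk RNA, fewer cells of a type and less RNA per cell cannot be told apart.

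The library labelled CsA_PI 2 went against its label. Of all 66 pairs of libraries, it and ethanol_US 2 were the closest pair. The median absolute log2 difference between them was 0.0758 over 7975 genes that averaged 10 CPM or more, against 0.154 to 0.189 between replicates of ethanol_PI and 0.508 and 0.558 between it and the other CsA_PI libraries. The median chi-square per gene was 0.944, above the 0.455 that counting noise alone gives, so the libraries were similar but not identical. For the 8 ligands, the difference between the library labelled CsA_PI 2 and ethanol_US 2 had a median of 0.179 and a maximum of 0.273 on the log2(CPM + 1) scale. It was kept under its label in the fits of 12 libraries. Tests of the 8 ligands that rest on CsA_PI are given again from the 11 other libraries.

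Promoter sequence was at hand for 5 of the 8 ligands (RefSeq, GRCm38.p6), in windows from 250 bases before to 50 bases after the gene's start. The windows were searched on both strands for GGAAA, the core that NFAT proteins bind, TGANTCA, a site for AP-1, and TGACG, the core of a cyclic AMP response element. GGAAA was found in 61.3% of all 32851 windows, TGANTCA in 7.81% and TGACG in 20.8%. Tnfsf14 had 4 matches to GGAAA, a number that 2.65% of all windows reached or passed, and 1 match to TGANTCA. Fasl had 2 matches to GGAAA and 1 to TGACG, Tnfsf10 had 1 of each, and Tnfsf8 and Tnfsf11 had 1 match to GGAAA each. No GGAAA match overlapped a TGANTCA match. The 250 bases before the start are shown for Tnfsf14, Fasl and Tnfsf11, which span the range from the lowest to the highest level left under CsA among the ligands that fell. They lie at chr17:57194182-57194431, chr1:161788496-161788745 and chr14:78308044-78308293, all on the minus strand. Capitals mark GGAAA and TGANTCA matches on either strand, and such a match is not evidence of binding. Of the 4 GGAAA matches of Tnfsf14, 3 lie in the stretch shown and 1 lies after the start, at position 42.
Tnfsf14: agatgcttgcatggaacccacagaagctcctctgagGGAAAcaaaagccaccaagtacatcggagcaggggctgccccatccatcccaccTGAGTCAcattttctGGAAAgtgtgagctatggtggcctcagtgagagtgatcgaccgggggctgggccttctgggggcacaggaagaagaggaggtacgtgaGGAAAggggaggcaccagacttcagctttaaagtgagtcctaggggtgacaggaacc
Fasl: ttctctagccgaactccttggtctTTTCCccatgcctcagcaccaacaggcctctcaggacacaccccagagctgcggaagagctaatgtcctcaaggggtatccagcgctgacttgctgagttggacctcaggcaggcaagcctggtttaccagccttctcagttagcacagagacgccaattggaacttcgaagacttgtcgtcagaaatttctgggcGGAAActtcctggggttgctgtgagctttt
Tnfsf11: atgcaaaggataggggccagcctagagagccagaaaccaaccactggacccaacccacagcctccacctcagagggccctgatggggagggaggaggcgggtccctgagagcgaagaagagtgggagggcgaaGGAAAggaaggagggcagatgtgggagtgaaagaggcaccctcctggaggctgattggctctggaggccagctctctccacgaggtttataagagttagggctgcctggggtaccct

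In vehicle, stimulation raised 7 of the 8 ligands, where 20.1% of all 14398 genes tested were called higher. The edgeR quasi-likelihood test with a Benjamini-Hochberg adjusted p under 0.05 was the criterion here and throughout, and fold changes are log2 values with their standard error. The median change of the 8 was 2.83, against -0.02 for all genes. In stimulated cells CsA lowered 6 ligands and raised 1, where 12.7% of genes were called lower and 10.3% higher, and the median change of the 8 was -2.62 against 0.06. Without the library labelled CsA_PI 2 the counts were also 6 lower and 1 higher, where 12.1% and 10.4% of genes were called. Tnfsf4 was the member that was higher with CsA, and Tnfsf10 the one without a call. The plot of CPM by library shows the values behind these counts.

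**Figure D1:**
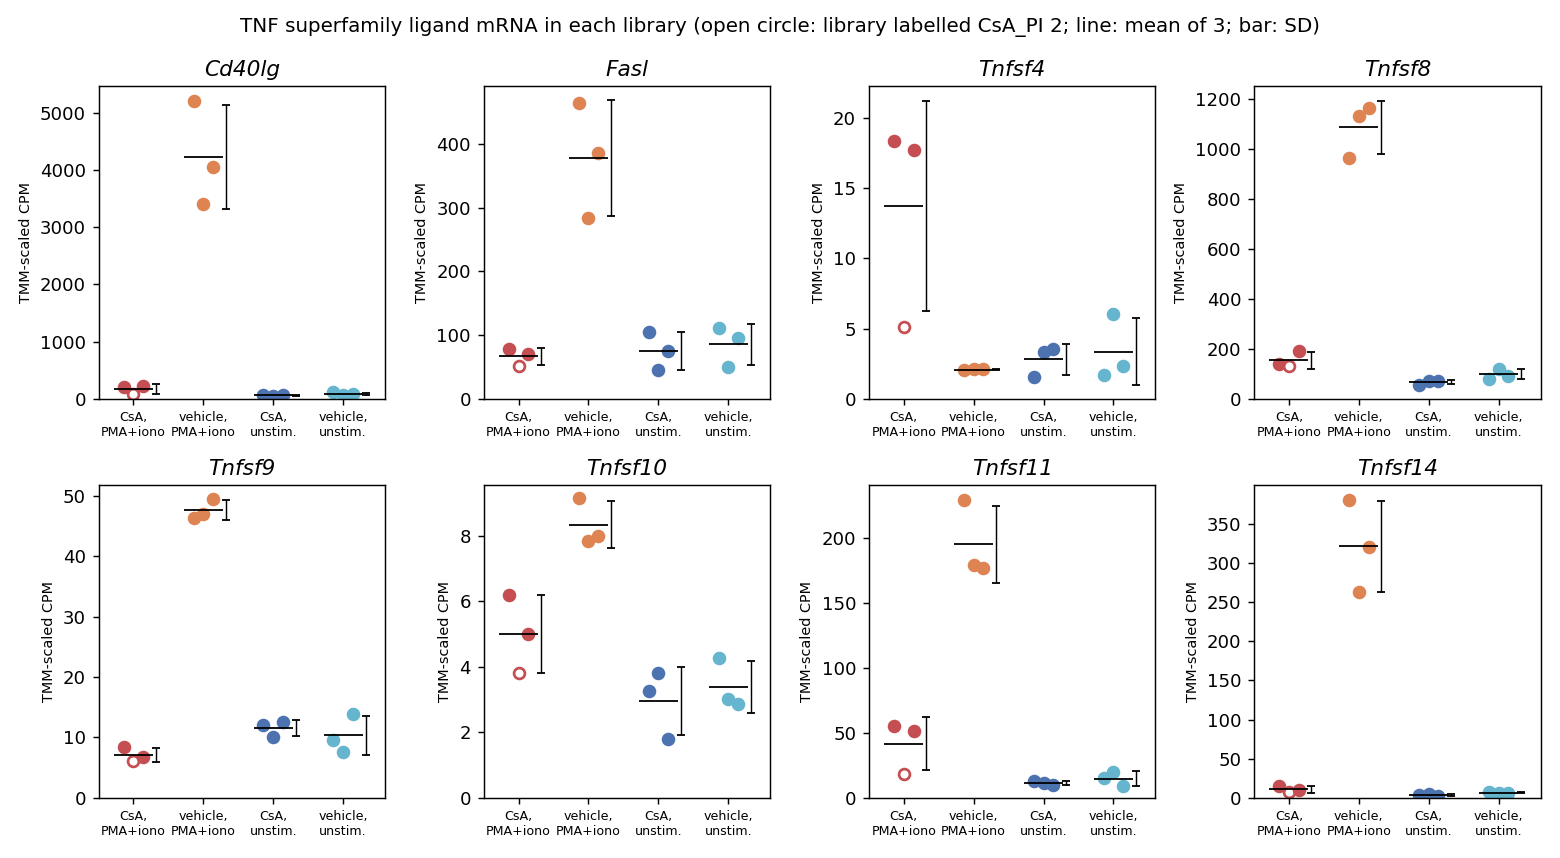
TMM-scaled CPM of each ligand (y axis, linear from 0) in the 12 libraries by group (x axis). Points are libraries, the line is the mean of 3 and the bar its SD; the open circle is the library labelled CsA_PI 2. Ethanol_PI libraries stand above the other groups for 7 ligands, and for Tnfsf4 CsA_PI replicates 1 and 3 do, at 18.4 and 17.7 CPM, with the library labelled CsA_PI 2 at 5.12 CPM.

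Cd40lg, Tnfsf8 and Tnfsf14 are ligands through which helper T cells act on other lymphocytes and on antigen-presenting cells. Cd40lg (ENSMUSG00000031132, chrX:57212143-57224042, plus strand, mm10) encodes CD40 ligand, whose contact with CD40 drives germinal centre responses and class switching of B cells. It stood at 214, 75.4 and 224 CPM in CsA_PI 1, 2 and 3, against 5198, 3411 and 4056 CPM in ethanol_PI. In unstimulated cells it stood at 71.0, 45.4 and 62.2 CPM with CsA, against 112, 69.8 and 78.4 CPM with vehicle. Every ethanol_PI library lay above every library of the other groups, and CsA_PI 1 and 3 lay between them and the unstimulated ones. The rise with stimulation in vehicle was 5.60 ± 0.44 (adjusted p = 3.9e-06). With CsA, stimulated cells changed by -4.62 ± 0.42 (adjusted p = 1.64e-05), or -4.23 ± 0.30 (adjusted p = 1.9e-06) with 11 libraries.

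Tnfsf14 (ENSMUSG00000005824, chr17:57189492-57194177, minus strand) encodes LIGHT, which binds the herpesvirus entry mediator and the lymphotoxin beta receptor. It stood at 15.6, 7.10 and 9.60 CPM in CsA_PI 1, 2 and 3, against 380.5, 264 and 321 CPM in ethanol_PI. Unstimulated cells held 3.67, 4.44 and 2.62 CPM with CsA and 7.16, 5.72 and 6.23 CPM with vehicle. The unstimulated groups did not overlap, and neither did the stimulated ones. Stimulation in vehicle raised it by 5.66 ± 0.32 (adjusted p = 9.02e-07), the largest rise of the 8. The change with CsA in stimulated cells was -4.90 ± 0.31 (adjusted p = 1.83e-06), or -4.62 ± 0.28 with 11 libraries, and was the largest of the 8 in both fits.

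Tnfsf8 (ENSMUSG00000028362, chr4:63831308-63861347, minus strand) encodes CD30 ligand. Its level was 138, 132 and 192 CPM in CsA_PI 1, 2 and 3, against 966, 1133 and 1164 CPM in ethanol_PI. It was 56.1, 71.1 and 72.8 CPM in CsA_US, against 81.3, 120.1 and 92.5 CPM in ethanol_US. The 4 groups did not overlap, although the library labelled CsA_PI 2 lay near ethanol_US 2. The rise in vehicle was 3.47 ± 0.23 (adjusted p = 1.75e-06), and the change with CsA in stimulated cells was -2.82 ± 0.22 (adjusted p = 7.14e-06), or -2.69 ± 0.23 with 11 libraries.

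Fasl and Tnfsf10 are the death ligands. Fasl (ENSMUSG00000000817, chr1:161780689-161788495, minus strand) encodes Fas ligand, which kills Fas-bearing cells and ends T cell responses by activation-induced death. It stood at 78.5, 51.5 and 70.0 CPM in CsA_PI 1, 2 and 3, against 465, 284 and 386 CPM in ethanol_PI. It stood at 104, 44.4 and 74.8 CPM in CsA_US, against 112, 49.8 and 95.6 CPM in ethanol_US. The ethanol_PI libraries were above all others, while CsA_PI overlapped both unstimulated groups. Stimulation in vehicle raised it by 2.14 ± 0.35 (adjusted p = 0.000584), and CsA changed stimulated cells by -2.50 ± 0.36 (adjusted p = 0.000402), or -2.31 ± 0.43 with 11 libraries. Markers of CD8 and NK cells, which also make Fas ligand, summed to 137 to 265 CPM in CsA_PI, 177 to 217 in ethanol_PI, 119 to 146 in CsA_US and 130 to 131 in ethanol_US. Of the 10 markers, stimulation in vehicle raised Prf1 (2.73) and lowered Klrb1c (-1.23) and Klrd1 (-1.40), and CsA in stimulated cells raised Klrb1c (1.16) and Klrd1 (1.40), calls that were also made with 11 libraries. Their part in the Fasl result was not tested. The transcript Fasl-201 carried 89.6%, 81%, 83.1% and 94.8% of the gene's mean TPM in CsA_PI, ethanol_PI, CsA_US and ethanol_US. The second transcript, Fasl-202, carried the rest, at 5.36 ± 3.2 TPM in CsA_PI and 49.8 TPM in ethanol_PI.

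Tnfsf10 (ENSMUSG00000039304, chr3:27317028-27342427, plus strand) encodes TRAIL, which in mice binds the death receptor Tnfrsf10b and the decoys Tnfrsf22 and Tnfrsf23. It was low throughout, at 6.19, 3.82 and 4.998 CPM in CsA_PI 1, 2 and 3, against 9.18, 7.86 and 8.01 CPM in ethanol_PI. In unstimulated cells it was at 3.25, 3.82 and 1.80 CPM with CsA, against 4.29, 3.01 and 2.85 CPM with vehicle. In CPM the stimulated groups did not overlap, and CsA_PI 1 and 3 lay above the unstimulated libraries. In TPM, which is scaled for transcript length, the stimulated groups overlapped, with CsA_PI 3 at 1.87 and ethanol_PI 1 at 1.80 TPM. The rise in vehicle was 1.30 ± 0.34 (adjusted p = 0.00828), a call that ended under library totals (0.68, adjusted p = 0.0995) and with limma on log2(TPM + 1) (0.38, adjusted p = 0.211). The difference with CsA in stimulated cells missed the threshold at -0.74 ± 0.33 (95% interval -1.39 to -0.09, adjusted p = 0.135), and at -0.53 ± 0.35 (adjusted p = 0.325) with 11 libraries.

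Tnfsf11 (ENSMUSG00000022015, chr14:78277445-78308043, minus strand) encodes RANK ligand, which drives osteoclast formation and the growth of medullary thymic epithelium and lymph nodes. It stood at 55.4, 18.2 and 51.4 CPM in CsA_PI 1, 2 and 3, against 229, 179 and 177 CPM in ethanol_PI. Unstimulated cells held 13.3, 11.3 and 9.75 CPM with CsA, against 15.3, 20.2 and 8.79 CPM with vehicle. CsA_PI 1 and 3 stood apart from every unstimulated library, and the library labelled CsA_PI 2 fell within the ethanol_US range. Stimulation in vehicle raised it by 3.72 ± 0.41 (adjusted p = 3.57e-05), and CsA changed stimulated cells by -2.23 ± 0.39 (adjusted p = 0.00146), or -1.83 ± 0.29 (adjusted p = 0.000544) with 11 libraries.

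Tnfsf9 and Tnfsf4 encode costimulatory ligands best known on antigen-presenting cells, with receptors Tnfrsf9 and Tnfrsf4 on T cells. Tnfsf9 (ENSMUSG00000035678, chr17:57105325-57107757, plus strand) stood at 8.33, 6.07 and 6.76 CPM in CsA_PI 1, 2 and 3, against 46.4, 47.1 and 49.5 CPM in ethanol_PI. It stood at 12.1, 10.1 and 12.6 CPM in CsA_US, against 9.53, 7.55 and 13.9 CPM in ethanol_US. Ethanol_PI was the one raised group, and the CsA_PI libraries lay below every CsA_US library. The rise in vehicle was 2.20 ± 0.24 (adjusted p = 2.78e-05), and the change with CsA in stimulated cells was -2.75 ± 0.25 (adjusted p = 1.64e-05), or -2.61 ± 0.28 with 11 libraries. The antisense gene Gm11110, at 0.953 to 3.09 CPM, shares 192 of the 1290 exon bases of Tnfsf9, and nothing states that counting used the strand, so reads of these genes may be mixed there.

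Tnfsf4 (ENSMUSG00000026700, chr1:161395409-161418410, plus strand), which encodes OX40 ligand, went the other way. It stood at 18.4, 5.12 and 17.7 CPM in CsA_PI 1, 2 and 3, against 2.03, 2.13 and 2.09 CPM in ethanol_PI. It stood at 1.55, 3.33 and 3.52 CPM in CsA_US, against 1.69, 6.07 and 2.33 CPM in ethanol_US. CsA_PI 1 and 3 stood above every other library, and the library labelled CsA_PI 2 was above ethanol_PI and CsA_US but below ethanol_US 2. CsA raised it in stimulated cells by 2.71 ± 0.59 (adjusted p = 0.00532), or 3.15 ± 0.50 (adjusted p = 0.000567) with 11 libraries. Stimulation in vehicle gave -0.69 ± 0.57 (95% interval -1.80 to 0.43, adjusted p = 0.372) and, without ethanol_US 2, 0.05. The estimated counts behind these levels were 232, 75 and 181 in CsA_PI 1, 2 and 3 and 17, 22 and 17 in ethanol_PI.

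Because B cells and dendritic cells also make Tnfsf4 and Tnfsf9, markers of those cells are set beside them. B cell markers summed to 3725, 4700 and 2880 CPM in CsA_PI 1, 2 and 3, and to 3511, 4218 and 2661 CPM in ethanol_PI. Myeloid and dendritic cell markers summed to 81.6, 202.7 and 65.3 CPM in CsA_PI 1, 2 and 3, and to 72.6, 208.1 and 53.5 CPM in ethanol_PI. Most of the B cell sum was Ighm, and single markers differed between equally numbered libraries: Cd79b stood at 330.5 CPM in the library labelled CsA_PI 2 and 38.4 CPM in ethanol_PI 2, and Cr2 at 29.6 and 136.3 CPM in the same libraries. The part of these cells in the Tnfsf4 and Tnfsf9 results was not tested. No B cell marker of 10 and no myeloid or dendritic cell marker of 10 was called for CsA in stimulated cells, in 12 or 11 libraries, by edgeR. The B cell markers had a median change of 0.51 (-2.19 to 2.47) with 12 libraries and -1.23 (-5.05 to 0.06) with 11. The myeloid and dendritic cell markers had 0.01 (-1.54 to 2.04) with 12 libraries and -0.48 (-3.20 to 0.83) with 11. With such wide ranges, the lack of a call does not show that these markers were unchanged. At an unadjusted p under 0.05 there were 0 B cell markers in either fit and, for myeloid and dendritic cells, 0 with 12 libraries and 2 with 11.

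**Figure D2:**
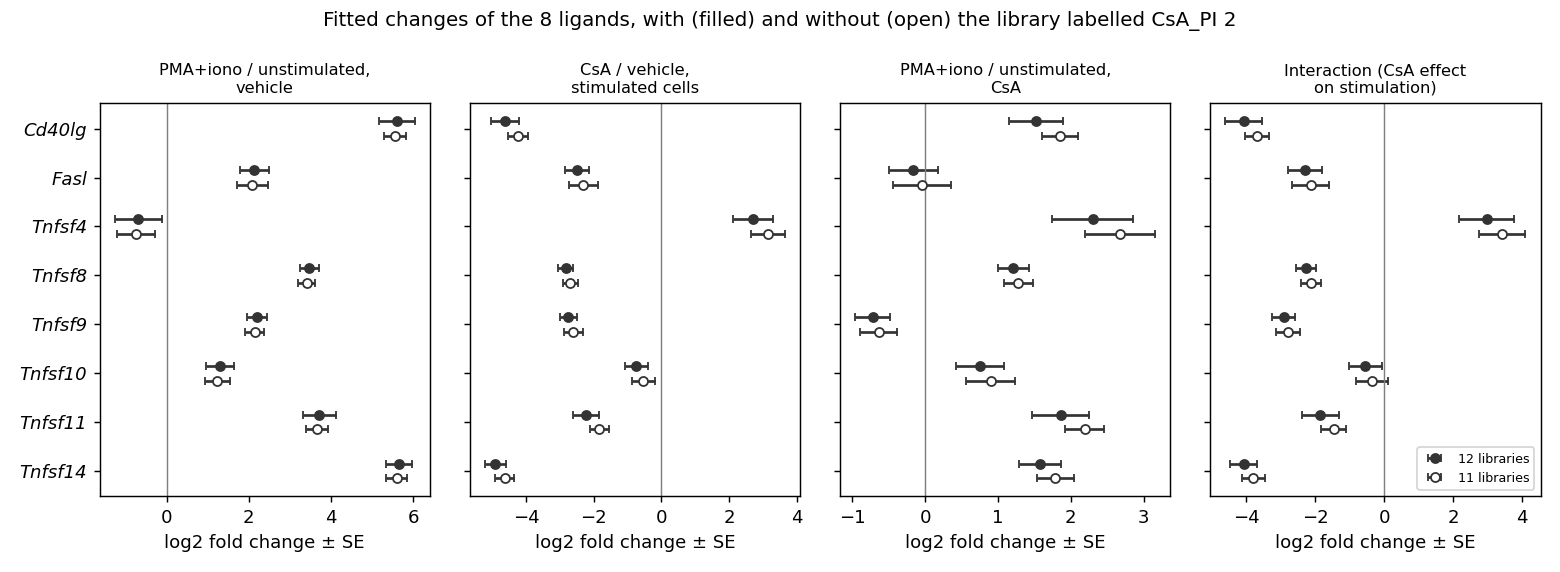
Log2 fold change ± SE (x axes) of each ligand (y axis) in 4 comparisons, from edgeR with 12 libraries (filled) and with 11, leaving out the library labelled CsA_PI 2 (open). In stimulated cells 6 ligands lie far below 0 with CsA, Tnfsf10 lies less far below it at -0.74, without a call, and Tnfsf4 lies above 0 at 2.71.

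Whether the response to stimulation itself differed between CsA and vehicle was tested as an interaction, the log2 change under CsA minus that in vehicle. It was called lower for 6 ligands and higher for Tnfsf4, where 6.19% of genes were called lower and 3.54% higher, and the median of the 8 was -2.29 against 0.07 for all genes. With 11 libraries the counts were the same 6 and 1, where 7.31% and 5.08% of genes were called. Cd40lg and Tnfsf14 both had -4.08 (SE 0.53 and 0.40), Tnfsf9 had -2.92 ± 0.34, Fasl -2.30 ± 0.49 and Tnfsf8 -2.27 ± 0.29, with adjusted p of 0.0118 or less. Tnfsf10 had -0.55 ± 0.47 (95% interval -1.47 to 0.37, adjusted p = 0.528). Tnfsf11 had -1.86 ± 0.54 (adjusted p = 0.0478) and Tnfsf4 had 2.98 ± 0.80 (adjusted p = 0.0344), close to the threshold. The Tnfsf11 call held without ethanol_US 2, CsA_PI 1 or the library labelled CsA_PI 2 and was lost without any other single library (adjusted p up to 0.114), under library totals (adjusted p = 0.051) and with no filter on low counts (adjusted p = 0.0819). The Tnfsf4 call held without ethanol_US 1, ethanol_US 3 or the library labelled CsA_PI 2 and was lost without any other (adjusted p up to 0.0851). With 11 libraries Tnfsf11 had -1.47 ± 0.37 (adjusted p = 0.0218) and Tnfsf4 had 3.43 ± 0.67 (adjusted p = 0.00461).

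Stimulation was also tested under CsA. Of the 8 ligands, 5 were called higher in CsA_PI than in CsA_US, where 3.9% of genes were, and the median of the 8 was 1.36 against 0.03 for all genes. Among these 5, Tnfsf4 had no call for stimulation in vehicle (-0.69 ± 0.57), so its rise is not a part of a response seen there. The changes were 2.30 ± 0.56 for Tnfsf4, 1.86 ± 0.39 for Tnfsf11, 1.58 ± 0.29 for Tnfsf14, 1.52 ± 0.37 for Cd40lg and 1.21 ± 0.21 for Tnfsf8, with adjusted p from 0.0395 to 0.0431. Fasl had -0.16 ± 0.34 (95% interval -0.83 to 0.51), Tnfsf9 -0.72 ± 0.24 (adjusted p = 0.0889) and Tnfsf10 0.75 ± 0.33 (adjusted p = 0.181). The 5 calls depended on single libraries. There were 5 without ethanol_US 2 or without the library labelled CsA_PI 2, 3 without ethanol_US 3, and 0 without any other library. There were also 0 under library totals, with limma on log2(TPM + 1), and when the compared groups were fitted alone. With 11 libraries, without the library labelled CsA_PI 2, the same 5 ligands were called, where 14.1% of genes were, with changes of 2.68 ± 0.48 for Tnfsf4, 2.19 ± 0.27 for Tnfsf11, 1.85 ± 0.25 for Cd40lg, 1.79 ± 0.25 for Tnfsf14 and 1.28 ± 0.20 for Tnfsf8 (adjusted p 0.00114 or less).

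In unstimulated cells CsA gave no call among the 8 ligands in edgeR or DESeq2, where 0.00695% of genes, 1 of 14398, were called by edgeR. Unadjusted p was under 0.05 for 2 ligands, Tnfsf14 at -0.82 ± 0.29 and Tnfsf8 at -0.56 ± 0.21. Both were lower in every CsA_US library than in every ethanol_US library. The shares of all genes that reached this unadjusted level, or showed no such overlap, are not given here. No effect of CsA is therefore drawn from these 2 ligands. With 11 libraries no ligand was called, where 0.0465% of genes were. Cd40lg, at -0.53 ± 0.22, then also had an unadjusted p under 0.05. The share of all genes at that unadjusted level is again not given, and no effect is drawn from Cd40lg either. With 12 libraries the 95% intervals of the other 6 ligands included 0, and the widest, that of Tnfsf4, reached from -1.35 to 0.80.

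To compare the ligands with each other, levels were taken as TPM, which is scaled for transcript length. In ethanol_PI, Cd40lg stood at 4039 ± 614.5 TPM (SD, n = 3), or 81.5% of the summed TPM of the 8. It was followed by Tnfsf8 at 306 ± 47.0, Fasl at 262 ± 54.0, Tnfsf14 at 195 ± 24.5, Tnfsf11 at 96.3 ± 8.49 and Tnfsf9 at 46.9 ± 3.98 TPM. Tnfsf10 at 2.12 ± 0.325 and Tnfsf4 at 1.29 ± 0.111 TPM came last. Of neighbours in that order, Tnfsf8 and Fasl overlapped, as did Fasl and Tnfsf14, and the others did not. The summed level of the 8 was 250 to 431.2 TPM in CsA_PI, 4289 to 5599 in ethanol_PI, 153.9 to 253 in CsA_US and 225.6 to 341 in ethanol_US.

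In CsA_PI the order was Cd40lg at 192 ± 76.2, Tnfsf8 at 52.7 ± 12.01, Fasl at 51.3 ± 1.29, Tnfsf11 at 24.0 ± 9.21, Tnfsf4 at 9.77 ± 4.45, Tnfsf9 at 8.39 ± 0.499, Tnfsf14 at 7.72 ± 1.83 and Tnfsf10 at 1.65 ± 0.306 TPM. Tnfsf14, which stood above Tnfsf11 in ethanol_PI, stood below it here, and Tnfsf4, the lowest in ethanol_PI, stood above Tnfsf9, Tnfsf14 and Tnfsf10. The ranges of Tnfsf8 and Fasl overlapped, as did those of Tnfsf4, Tnfsf9 and Tnfsf14. With CsA_PI 1 and 3 alone Tnfsf4 was at 12.3 TPM, above the ranges of Tnfsf14 and Tnfsf9, which overlapped at means of 8.37 and 8.16 TPM, and Tnfsf11 was at 29.3 TPM. Cd40lg made up 53.8% of the summed TPM of the 8 in CsA_PI (59.1% over CsA_PI 1 and 3), 38.4% in CsA_US and 44.2% in ethanol_US. In both unstimulated groups Cd40lg and Fasl led and their ranges overlapped, and Tnfsf4 and Tnfsf10 were the lowest.

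The TPM left in CsA_PI, as a percentage of the mean in ethanol_PI, spread widely among the ligands that fell. It was 3.96% ± 0.94 for Tnfsf14 and 4.76% ± 1.89 for Cd40lg (SD over 3 CsA_PI libraries). It was 17.2% ± 3.93 for Tnfsf8, 17.9% ± 1.06 for Tnfsf9, 19.6% ± 0.491 for Fasl and 24.9% ± 9.57 for Tnfsf11. Over CsA_PI 1 and 3 alone it was 4.3% for Tnfsf14, 5.81% for Cd40lg, 16.9% for Tnfsf8, 17.4% for Tnfsf9, 19.4% for Fasl and 30.4% for Tnfsf11. Ligands with similar remainders differed in their mean unstimulated level. Mean TPM in ethanol_US was 30% and 32.4% of that in ethanol_PI for Fasl and Tnfsf9, above what was left under CsA. For Tnfsf8 it was 13.3%, below what was left. Single libraries of ethanol_US and CsA_PI overlapped in TPM for Fasl and Tnfsf8, and Fasl in ethanol_US 2, at 42.1 TPM, lay below every CsA_PI library. In TMM-scaled CPM, ethanol_US stood at 22.7%, 21.7% and 9% of ethanol_PI for Fasl, Tnfsf9 and Tnfsf8. What was left in CsA_PI on that scale was 17.6%, 14.8% and 14.1%.

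**Figure D3:**
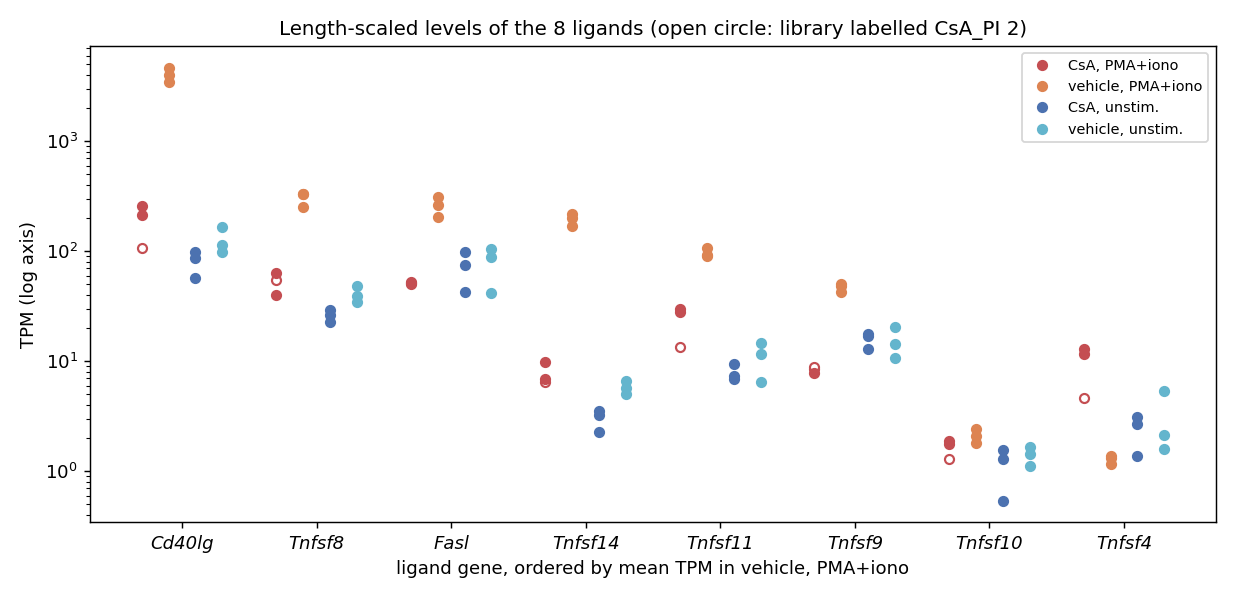
TPM of each ligand (y axis, log scale) in every library, with ligands ordered by mean TPM in ethanol_PI (x axis) and groups in colour; the open circle is the library labelled CsA_PI 2. Cd40lg leads in ethanol_PI at 4039 TPM, and Tnfsf4 is the ligand whose CsA_PI points lie above its ethanol_PI points.

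Several ligand genes are neighbours on mm10. Fasl and Tnfsf4 lie 362 kb apart on chromosome 1 with 1 coding gene between them, Tnfsf18, another ligand of the family, at most at 0.226 CPM in any library. CsA in stimulated cells lowered Fasl and raised Tnfsf4. Tnfsf9 and Tnfsf14 lie 81.7 kb apart on chromosome 17 with Cd70 between them, a further ligand that did not pass the filter and reached at most 0.485 CPM. Tnfsf9 and Tnfsf14 were both higher with stimulation in vehicle and both lower with CsA in stimulated cells.

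The genes with the most similar profiles were found as those with the smallest root mean square (RMS) difference in log2 CPM over the 12 libraries, each profile centred on its mean, among 8015 genes of at least 10 CPM. Cd40lg and Tnfsf14 had the same nearest pair, Shmt1, a folate-pathway hydroxymethyltransferase, and Jaml, a junctional adhesion molecule (RMS 0.36 and 0.43 for Cd40lg, 0.52 and 0.54 for Tnfsf14). Shmt1 stood at 25.5, 9.35 and 30.3 CPM in CsA_PI 1, 2 and 3, against 341, 276 and 306 CPM in ethanol_PI. Nearest to Fasl were Stambpl1 (0.25) and Slc1a5 (0.31), to Tnfsf8 Rrp12 (0.22) and Fam185a (0.25), and to Tnfsf9 Ksr1 and Sap30 (0.26 each). Nearest to Tnfsf10 were Coa7 (0.21) and Phykpl (0.22), and to Tnfsf11 Mapk6 (0.20) and Map2k3 (0.23). Nearest to Tnfsf4 were Tnfrsf23 (0.40), a decoy receptor for TRAIL, and Mxd1 (0.51), a partner of Max that competes with Myc. Tnfrsf23 stood at 47.3, 7.16 and 50.3 CPM in CsA_PI 1, 2 and 3, against 4.17, 6.98 and 6.04 CPM in ethanol_PI. As with Tnfsf4, CsA_PI 1 and 3 stood above every other library. With 11 libraries Ksr1 ranked 4 for Tnfsf9, with Sap30 at rank 1 (0.22), and Fam185a ranked 3 for Tnfsf8, while the other genes named as nearest kept ranks 1 and 2.

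**Figure D4:**
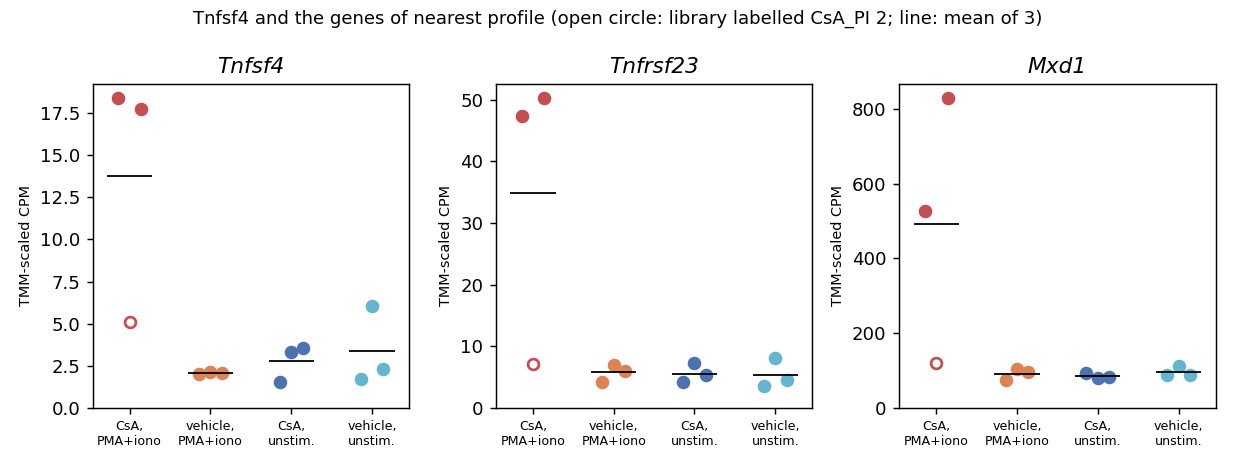
TMM-scaled CPM (y axes, linear from 0) of Tnfsf4 and of the genes with the nearest profiles, Tnfrsf23 and Mxd1, in each library by group (x axes); lines are means of 3 and the open circle is the library labelled CsA_PI 2. In all 3 genes CsA_PI replicates 1 and 3 stand above every other library, at 18.4 and 17.7 CPM for Tnfsf4.

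A list of 13 genes held the receptors for these ligands and Btla, an inhibitory receptor that shares the herpesvirus entry mediator with LIGHT, and 12 were tested. Stimulation in vehicle raised 5 genes, where 20.1% of all genes were called higher. They were Btla (3.55 ± 0.28) and the receptors Tnfrsf4 (1.99 ± 0.36), Fas (1.87 ± 0.49), Tnfrsf9 and Tnfrsf10b. CsA in stimulated cells raised 3, namely Tnfrsf23 (2.60 ± 0.61, adjusted p = 0.00921), Tnfrsf14 (1.71 ± 0.54, adjusted p = 0.0387) and Tnfrsf22 (1.45 ± 0.31, adjusted p = 0.00517). It lowered Btla (-3.30 ± 0.28, adjusted p = 1.1e-05) and the receptor Tnfrsf4 (-1.68 ± 0.36, adjusted p = 0.00526). Of all genes, 10.3% were called higher and 12.7% lower in this comparison, and 10.4% and 12.1% with 11 libraries. Among the 12 tested, the 2 lowered in either fit are near these shares. The 2 raised with 11 libraries are near them too, so these counts are not read as a result about the list. With 11 libraries Btla had -3.49 ± 0.28 (adjusted p = 3.36e-06) and Tnfrsf4 -1.46 ± 0.40 (adjusted p = 0.0236), 2 were raised, Tnfrsf23 (3.12 ± 0.36) and Tnfrsf22 (1.84 ± 0.15), and Tnfrsf14 was not called. The receptor Tnfrsf4 and its ligand Tnfsf4 thus moved in opposite directions with CsA: the receptor stood at 272, 204.5 and 369 CPM in CsA_PI 1, 2 and 3, against 711, 880 and 1116 CPM in ethanol_PI. Both decoy receptors for TRAIL were higher with CsA, and the death receptor Tnfrsf10b, at -0.34 ± 0.35, was not called.

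Of 10 other ligands of the family, 3 were tested. Tnf and Lta, ligands of the TNF receptors, rose with stimulation in vehicle by 7.66 ± 0.90 and 3.75 ± 0.60, and Ltb had -0.65 ± 0.33 with no call. CsA in stimulated cells lowered Tnf, by -4.41 ± 0.78 (adjusted p = 0.00229), while Lta had -1.58 ± 0.55 (adjusted p = 0.0611). Without the library labelled CsA_PI 2, Tnf had -3.84 ± 0.30 (adjusted p = 3.35e-06) and Lta was called at -1.04 ± 0.19 (adjusted p = 0.00145). Signal adaptors that carry receptor signals were all tested, 15 of 15. Stimulation in vehicle raised 8 and lowered 3, led by Traf4 (2.05 ± 0.18), Cflar (1.85 ± 0.27), an inhibitor of death receptor signalling, and Tank (1.70 ± 0.23). Of all 14398 genes tested, 2892 were called higher and 2836 lower there, so the 3 lowered are near that share. CsA in stimulated cells raised 2 and lowered 5, led by Traf4 (-1.57), Cflar (-1.32) and Birc2 (1.24), where 10.3% and 12.7% of genes were called. The 2 raised are also near the share of all genes. With 11 libraries it raised 5 and lowered 5, where 10.4% and 12.1% of genes were called. Of 4 tested genes for ligand processing, CsA in stimulated cells lowered Adam10 (-1.56 ± 0.32, adjusted p = 0.00405), the sheddase that cleaves several of these ligands, and raised Sppl2a (0.80 ± 0.26, adjusted p = 0.04), an intramembrane protease. Adam10 stood at 51.1, 146.8 and 77.4 CPM in CsA_PI 1, 2 and 3, against 241, 268 and 302 CPM in ethanol_PI. With 11 libraries Adam10 had -2.04 ± 0.25 and Sppl2a 0.89 ± 0.27 (adjusted p = 0.0329). The medians of these lists for CsA in stimulated cells were -0.34 for receptors, -1.58 for other ligands, 0.02 for adaptors and 0.58 for processing, against 0.06 for all genes. With 11 libraries they were 0.04 for receptors, whose sign turned, -1.69 for other ligands, of which 4 were then tested, 0.16 for adaptors and 0.54 for processing, against 0.05 for all genes.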

How the data were processed

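RNA was sequenced from 12 libraries, 3 per group, made with Clontech SMART-seq per the labels' protocols. The tools were cutadapt for trimming and kallisto for quantification, with mm10, per the submitters' processing notes; versions and transcript annotation are not given in the sources used here. Per the file headers, the authors deposited for each transcript an estimated count, not scaled for depth, and its TPM, scaled for length and depth within a library. Of 109617 transcripts, 108214 matched GENCODE M21 identifiers; the 1403 others held 0.494% to 0.628% of counts and were left out. Values were summed per gene, and estimated counts were rounded.

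One fit of 12 libraries and 4 group means was made with edgeR 4.0.16 in R 4.3.3, using TMM scaling, edgeR's expression filter (minimum count 10, total 15), robust quasi-likelihood tests, and Benjamini-Hochberg adjustment over 14398 genes (15057 with 11 libraries). A gene was called at an adjusted p under 0.05. An SE was obtained from the log2 fold change and the square root of the F statistic. CPM are counts scaled to the TMM-adjusted library size. Alternatives used DESeq2 1.42.0, limma 3.58.1 on log2(TPM + 1), other scalings and filters, and each library left out in turn. The edgeR steps were tested on simulated data.

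The 8 ligands, the lists of receptors, other ligands, adaptors, processing genes and cell markers, and the tests were chosen with earlier results of these data known. Named genes were the 8 ligands, the 2 nearest profiles of each, and up to 3 called genes with the largest change per list and comparison. Other list members, among them Tnfrsf9, Tnfrsf10b, Tnfrsf22 and Ltb, were named after their values were seen.

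The replicate numbers of the labels were checked as pairs by the correlation over genes of deviations from the group means in equally numbered libraries. It was 0.107 to 0.208 between CsA_PI and ethanol_PI, 0.143 to 0.319 between ethanol_PI and ethanol_US, and 0.196 to 0.325 between CsA_US and ethanol_US. The numbers were therefore taken to pair these groups, and the labels do not say what a number shares. The main fit used group means without these pairs, so its p-values ignore them. The replicate number entered as a block only in alternatives. The comparison of libraries in pairs used genes with a summed count of at least 50 for chi-square values.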

Additional observations from a re-analysis of the deposited data

Results flagged for a closer look

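The response to stimulation under CsA minus that in vehicle was tested as an interaction in edgeR, and 7 ligands were picked out because that test passed the threshold (adjusted p under 0.05). The log2 values were -4.08 for Cd40lg, -2.30 for Fasl, 2.98 for Tnfsf4, -2.27 for Tnfsf8, -2.92 for Tnfsf9, -1.86 for Tnfsf11 and -4.08 for Tnfsf14. Tnfsf4 was the member whose response was larger under CsA. Without the library labelled CsA_PI 2 the value for Tnfsf4 was 3.43 and that for Tnfsf11 was -1.47.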

How the results depend on the processing

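For CsA in stimulated cells, all 160 values of the 8 ligands under the alternatives kept their direction and their side of the threshold. Over all comparisons, 428 values of called ligands kept their call and 85 lost it. Under library totals in place of TMM, the median of all genes was -0.63 for stimulation in vehicle, 0.40 for CsA in stimulated cells, -0.21 for stimulation in CsA and 0.43 for the interaction. The calls higher and lower were then 1580 and 5437 (2892 and 2836 with TMM), 2870 and 1193 (1485 and 1833), 5 and 0 (561 and 199), and 950 and 531 (509 and 891) in these comparisons. Signs changed, all without a call and where the cause was not tested, for stimulation in vehicle without ethanol_US 2 (Tnfsf4, 0.05; -1.08 at the other end over single libraries left out); for CsA in unstimulated cells without ethanol_US 1 (Fasl 0.04, Tnfsf10 0.01), ethanol_US 2 (Tnfsf4 0.47, Tnfsf9 -0.02), CsA_US 1 (Tnfsf4 0.03), CsA_US 2 (Fasl 0.08) or CsA_US 3 (Tnfsf10 0.06); and for stimulation in CsA without CsA_US 1 (Fasl, 0.16). With single libraries left out, these values ranged from -0.53 to 0.08 for Fasl, -0.60 to 0.47 for Tnfsf4, -0.02 to 0.45 for Tnfsf9 and -0.40 to 0.06 for Tnfsf10 with CsA in unstimulated cells, and from -0.46 to 0.16 for Fasl with stimulation in CsA.

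Genes called for CsA in unstimulated cells numbered 1 in the 12-library fit, 20 with DESeq2, 0 with limma and 0 to 7 with single libraries left out. For stimulation in CsA, 760 genes were called, against 5 under library totals, 0 with the compared groups alone, 2022 with DESeq2, 30 with limma and 0 to 4321 with single libraries left out. The 5 ligands called higher there were 0 under library totals, with the compared groups alone and with limma, and 0 to 5 with single libraries left out; DESeq2 called 1 ligand lower, Tnfsf9. The interaction had 1400 genes called, 2120 with DESeq2 and 787 to 1865 with single libraries left out; ligands called higher were then 0 to 1. The cause was not tested.

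With the replicate number as a block, no call among the ligands changed except that of Tnfsf4 for stimulation in CsA, which was lost, and 441 genes were called there. Equally numbered libraries of CsA_PI and CsA_US correlated at 0.033, 0.110 and 0.123, and the numbers were not taken to pair them. That line is a choice, because these values overlap the 0.107 to 0.208 between CsA_PI and ethanol_PI. Every library also correlated best with its own number. With the block and without the library labelled CsA_PI 2, an alternative chosen after seeing the data, 15 genes were called for CsA in unstimulated cells, 4831 for stimulation in CsA, with 1 ligand lower, and 2274 for the interaction.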
